A study of Sus scrofa with 6 samples.

Results

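Non-muscle actins and a small set of proteins that shape actin filaments were followed in the preovulatory follicles of sows. The set holds 8 genes, namely the cytoplasmic actins ACTB and ACTG1, the alpha-actinins ACTN1 and ACTN4, the capping protein subunit CAPZB, cofilin CFL1, profilin PFN1 and the ARP2/3 subunit ARPC2. Every probe set that the probe table of the array gives exactly 1 of these symbols was taken. This found 20 of the 24123 probe sets, for 6 of the 8 genes. ACTN4 and PFN1 had no probe set under a single symbol. ACTG1 had 10 probe sets, of which 4 are quality controls of the array, ACTN1 and CAPZB had 3 each, ACTB had 2, and CFL1 and ARPC2 had 1 each. The genes were picked with earlier results of these signals known, so differences between the breeds describe the members and support nothing beyond them.

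Follicles were taken from 3 Chinese Erhualian sows, a strain of the Taihu pigs that the paper calls Chinese Taihu, and from 3 Large White sows. All 6 were multiparous and had received 1000 IU PMSG and, 80 h later, 500 IU hCG, and they were killed 30 to 38 h after hCG. PMSG stimulates follicle growth as FSH does, and hCG triggers ovulation through the receptor for LH. Healthy follicles of more than 5 mm were dissected, and 5 µg total RNA of each sow was labelled for 1 array. Each breed came from its own farm, so breed and farm cannot be told apart. A whole follicle holds granulosa, theca, vessel and blood cells, and fewer cells of a type cannot be told apart from less RNA per cell. The values are normalized signal intensities on a linear scale, and a log2 difference is always Erhualian minus Large White.

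Actin monomers join into filaments at the barbed end and leave at the pointed end. Profilin feeds monomers to the growing end, capping protein closes it, cofilin cuts old filaments, the ARP2/3 complex starts branches, and alpha-actinin ties filaments into bundles and anchors them at adhesions. Filaments of beta- and gamma-actin give granulosa and theca cells their shape and contacts. Granulosa cells are known to round up and rebuild their actin after gonadotropin, and beta-actin is often used as a reference transcript because most cells make much of it.

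The study's own RT-PCR was normalized to beta-actin. The primer pair it lists for this is shown because it names the transcript that served as the denominator, and its template accession is that of ACTB in RefSeq. The sequences are given 5′ to 3′, with no part marked in capitals. No RT-PCR value was analysed.
beta-actin sense: ccaggtcatcaccatcgg
beta-actin antisense: ccgtgttggcgtagaggt

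The sows also differed in markers of other cell types. STAR and CYP11A1, genes of steroid synthesis, were picked from the theca interna marker list after their values were seen. They were at 27.0 and 63.9 in Erhualian sow 1, against 982 to 12624 and 1004 to 13520 in the other 5 sows. In the same sow all 6 tested surface epithelium markers were highest, with a summed signal of 29290 against 1378 to 5449 elsewhere. The summed granulosa markers were at 3635 in this sow and at 15061 to 21698 in the others. Not all of the 9 tested granulosa genes were low there. INHBA and CYP19A1, named after their values were seen, were highest in this sow, at 899 and 119. Leukocyte markers were highest in Large White sow 2 in 7 of 10 tested genes, and their summed signal was 20288 there and 3546 to 6359 elsewhere. The other 3 were the T cell genes CD3E, CD3D and CD2, named after their values were seen. They were highest in Erhualian sow 1, at 130, 194 and 169. The smooth muscle markers overlapped, at 18159 to 27971 in Erhualian and 16961 to 30359 in Large White sows. Summed red blood cell markers (3 tested genes) were at 719 to 919 in Erhualian and at 478 to 668 in Large White sows, without overlap. Each of these genes taken alone overlapped between the breeds. The part of the red blood cell markers in the members' signals was not tested. The members that differed most are also given without Erhualian sow 1 or Large White sow 2.

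All 16 transcript probe sets of the members, that is all but the 4 controls, had a signal above 50 on every array. None of the 16 had an adjusted p below 0.05 in limma over 19196 probe sets, of which 4 (0.0208%) did. At an unadjusted p of at most 0.05 there were 5 of 16, all with the lower signal in Erhualian sows, against 2.30% of all probe sets in that direction, 1.56% in the other and 3.86% in either. The methods' t-test gave 0 adjusted and 3 unadjusted. In 5 of the 16 the 3 arrays of each breed were apart, with Erhualian sows above in 1 and below in 4, against 3.98% of all probe sets above, 5.12% below and 9.10% either way. The median log2 difference was -0.17 over the 16 and 0.00188 over all probe sets. Without Large White sow 2 the median over the 16 was -0.05, without Erhualian sow 3 or Large White sow 1 it was -0.28, and without Erhualian sow 1 it was -0.14. The count of 5 became 1 without Erhualian sow 1, 3 without Erhualian sow 2, 3 without Erhualian sow 3 and 2 without Large White sow 2. Nothing is read from these counts, since the members were chosen with such results known.

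**Figure D1:**
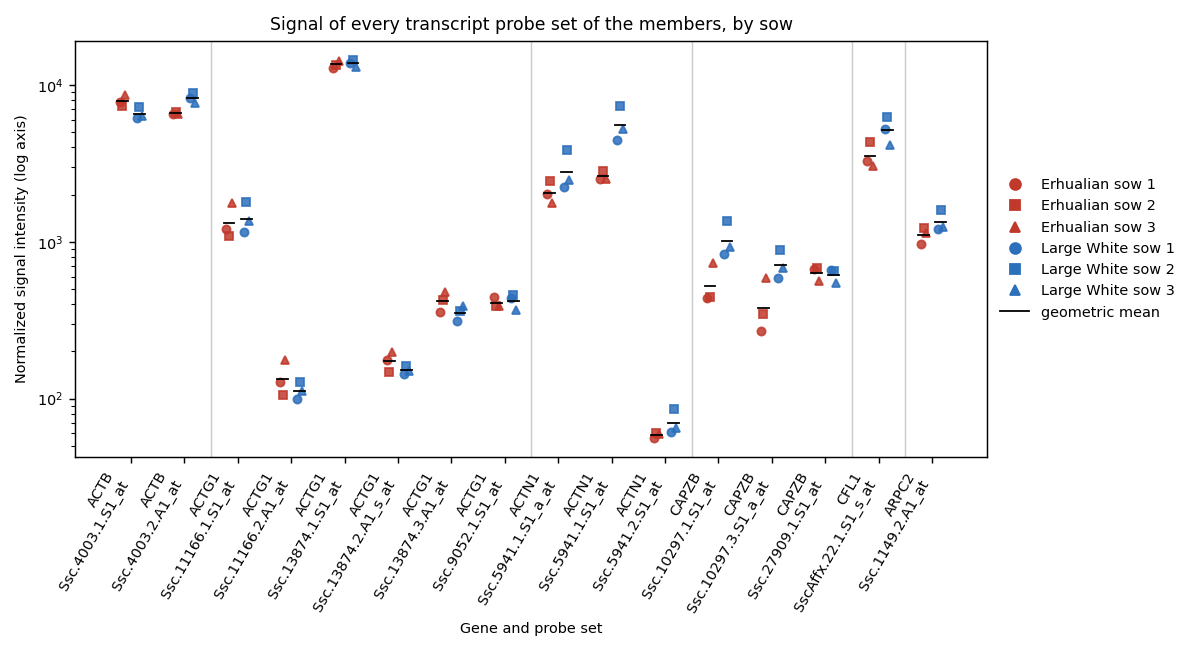
Normalized signal intensity (log axis) of the 16 transcript probe sets, grouped by gene. Each point is 1 sow, Erhualian left and Large White right in each pair, and the bar is the geometric mean of 3 sows. The ACTB probe sets lie apart in opposite directions, ACTN1 Ssc.5941.1.S1_at is at 2508 to 2831 in Erhualian and 4486 to 7348 in Large White sows, and ACTG1 Ssc.13874.1.S1_at is nearly level.

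Beta-actin itself is read by a pair of probe sets, and they differed in opposite directions. On Ssc.4003.1.S1_at the signals of ACTB were 7773, 7373 and 8646 in Erhualian sows 1 to 3 and 6176, 7242 and 6302 in Large White sows 1 to 3. Every Erhualian sow was above every Large White sow, though Erhualian sow 2 exceeded Large White sow 2 by little. This gave a log2 difference of 0.27 (SE 0.12). On Ssc.4003.2.A1_at they were 6555, 6740 and 6521 in Erhualian and 8238, 8936 and 7708 in Large White sows. Here every Erhualian sow was below every Large White sow. That is a log2 difference of -0.33 (SE 0.11), and the 3 Erhualian values lay within 1.03-fold of each other.

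The ratio of these ACTB signals, Ssc.4003.1.S1_at over Ssc.4003.2.A1_at, was 1.19, 1.09 and 1.33 in Erhualian sows and 0.75, 0.81 and 0.818 in Large White sows. The mean was 1.20 ± 0.117 (SD, n = 3) in Erhualian and 0.793 ± 0.0372 in Large White sows, and the breeds did not overlap. Such a ratio within an array shows that the probe sets did not change alike, and not which of them followed the transcript. Leaving out any 1 sow left the log2 difference between 0.21 and 0.34 on Ssc.4003.1.S1_at and between -0.38 and -0.27 on Ssc.4003.2.A1_at. Of the 1957 genes with at least 2 tested probe sets, 12 had probe sets without overlap in both directions, and ACTB is among them. The coding parts of the actin genes are very alike, and where the probes of each set bind was not analysed here, so signal from another actin in an ACTB probe set was not tested.

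**Figure D2:**
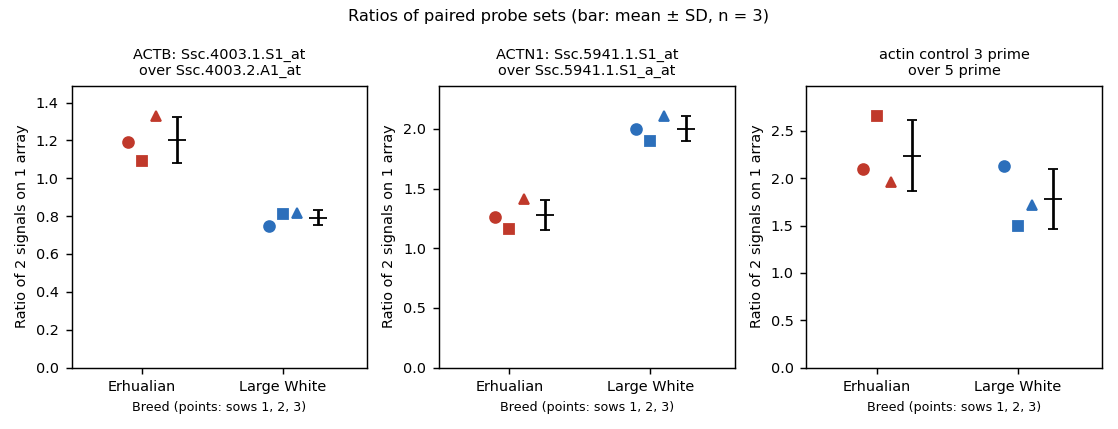
Ratio of the signals of 2 probe sets on the same array, for ACTB, for ACTN1 and for the actin quality control (3 prime over 5 prime). Each point is 1 sow (circle 1, square 2, triangle 3), with the mean ± SD of 3 sows beside it, Erhualian left and Large White right. The ACTB ratio is at 1.09 to 1.33 against 0.75 to 0.818 and the ACTN1 ratio at 1.16 to 1.41 against 1.90 to 2.11, while the control ratios overlap.

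Gamma-actin, the other cytoplasmic actin, had the steadiest signal of the members on Ssc.13874.1.S1_at. The signals of ACTG1 there were 12829, 13418 and 14303 in Erhualian and 13882, 14496 and 13092 in Large White sows. The breeds overlapped, with a log2 difference of -0.03 (SE 0.09). The highest array was 1.13 times the lowest, and only 0.719% of the tested probe sets had a smaller ratio.

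The other 5 transcript probe sets of ACTG1 overlapped between the breeds as well. On Ssc.11166.1.S1_at the signals were 1204, 1091 and 1755 in Erhualian and 1146, 1782 and 1347 in Large White sows. Erhualian sow 3 and Large White sow 2 were the high ones, and the log2 difference was -0.08 (SE 0.27). On Ssc.11166.2.A1_at Erhualian sow 3 was highest too, at 176 against 99.7 to 128 on the other 5 arrays, and without this sow its log2 difference was 0.04. The log2 differences of Ssc.11166.2.A1_at, Ssc.13874.3.A1_at, Ssc.13874.2.A1_s_at and Ssc.9052.1.S1_at were 0.24, 0.24, 0.19 and -0.04, each with an SE of 0.17 to 0.23. Over the arrays, the signals of Ssc.13874.3.A1_at, Ssc.13874.2.A1_s_at and Ssc.9052.1.S1_at were 314 to 480, 144 to 198 and 365 to 457. These levels are far below those of Ssc.13874.1.S1_at. Leaving out single sows gave 0.14 to 0.35 for Ssc.13874.3.A1_at and 0.09 to 0.30 for Ssc.13874.2.A1_s_at, lowest without Erhualian sow 3 in both. The ending _s_at marks probes that match transcripts of several genes. Leaving out single sows turned the sign of Ssc.11166.1.S1_at, Ssc.13874.1.S1_at and Ssc.9052.1.S1_at, with log2 differences of -0.29 to 0.09, -0.07 to 0.00438 and -0.13 to 0.03.

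The array carries control probe sets along an actin transcript, which the probe table assigns to ACTG1 and which share their source accession with Ssc.13874.1.S1_at. At the 3 prime end (AFFX-Ssc-actin-3_at) the signals were 13696, 14541 and 15126 in Erhualian and 15062, 15627 and 14200 in Large White sows. At the 5 prime end (AFFX-Ssc-actin-5_at) they were 6515, 5459 and 7708 in Erhualian and 7078, 10438 and 8241 in Large White sows. Large White sow 2 was the highest and Erhualian sow 2 the lowest at the 5 prime end, and the breeds overlapped at both ends. The log2 difference was -0.05 at the 3 prime end, -0.20 in the middle, and -0.38 and -0.29 on the pair of 5 prime sets.

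The ratio of the 3 prime to the 5 prime control was 2.10, 2.66 and 1.96 in Erhualian and 2.13, 1.5 and 1.72 in Large White sows. Reverse transcription starts at the 3 prime end, so this ratio grows where RNA or cDNA is shorter. Large White sow 2, whose members were often highest, had the lowest ratio of the 6. The array's other actin control series did not share this order. On AFFX-Ss_Actin_3_s_at Large White sow 2 was highest, at 1107 against 624 to 966 in the others. On AFFX-Ss_Actin_5_s_at it was at 240, within the 199 to 275 of the others. The part of RNA length in the differences of the other members was not tested.

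Alpha-actinin 1, which cross-links filaments in stress fibres and at focal adhesions, had the lowest Erhualian signal relative to Large White among the members. On Ssc.5941.1.S1_at the signals of ACTN1 were 2529, 2831 and 2508 in Erhualian and 4486, 7348 and 5230 in Large White sows. The breeds did not overlap, and the gap between them was wider than the range within Erhualian sows. The means were 2623 ± 181 (SD, n = 3) in Erhualian and 5688 ± 1485 in Large White sows, a ratio of 0.461. In log2 units the difference was -1.09 (SE 0.21), with an adjusted p of 0.712 by limma, the lowest of the members. It was -0.89 without Large White sow 2 and -1.06 without Erhualian sow 1.

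The other probe sets of ACTN1 differed less. On Ssc.5941.1.S1_a_at, made from the same accession, the signals were 2005, 2444 and 1779 in Erhualian and 2241, 3869 and 2475 in Large White sows. The breeds overlapped, and Large White sow 2 stood above the rest. Their log2 difference was -0.43 (SE 0.26), -0.20 without Large White sow 2 and -0.41 without Erhualian sow 1. The ending _a_at marks probes shared by alternative transcripts of 1 gene. On Ssc.5941.2.S1_at the signals were 55.9, 60.1 and 59.5 in Erhualian and 61.0, 86.1 and 64.7 in Large White sows, just above the filter of 50. The log2 difference there was -0.26 (SE 0.17), -0.10 without Large White sow 2 and -0.22 without Erhualian sow 1.

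The ratio of Ssc.5941.1.S1_at to Ssc.5941.1.S1_a_at for ACTN1 was 1.26, 1.16 and 1.41 in Erhualian and 2.0, 1.90 and 2.11 in Large White sows. The breeds did not overlap in this ratio, and Large White sow 2, highest on both probe sets, had the lowest ratio of its breed. The mean ratio was 1.28 ± 0.126 (SD, n = 3) in Erhualian and 2.0 ± 0.107 in Large White sows. The ACTN1 probe sets of 1 accession therefore did not change alike between the breeds, though both were lower on average in Erhualian sows. The ACTB pair, made from different accessions, differed in opposite directions.

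**Figure D3:**
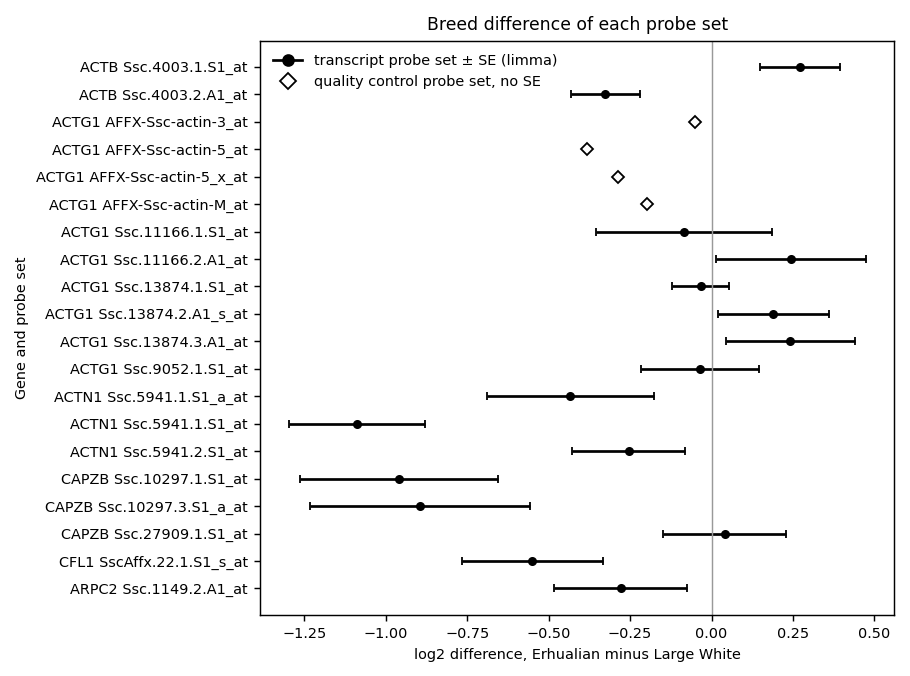
Breed differences of the 20 probe sets, each as log2 of Erhualian minus log2 of Large White on the x axis. Filled points are the 16 transcript probe sets with the SE of the limma fit, and open diamonds the 4 actin quality controls without SE. ACTN1 Ssc.5941.1.S1_at (-1.09) and 2 of the CAPZB probe sets (-0.96 and -0.90) lie farthest to the left, and the ACTB probe sets lie on opposite sides of 0.

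CAPZB, the beta subunit of the protein that closes the barbed end, was read by 3 probe sets, of which 2 had lower signals in Erhualian sows. On Ssc.10297.1.S1_at the signals of CAPZB were 438, 447 and 732 in Erhualian and 837, 1365 and 920 in Large White sows. The breeds did not overlap, and Erhualian sow 3 came close to Large White sow 1. This probe set had a log2 difference of -0.96 (SE 0.30), -0.75 without Large White sow 2 and -0.83 without Erhualian sow 1. On Ssc.10297.3.S1_a_at they were 269, 346 and 585 in Erhualian and 583, 882 and 683 in Large White sows. Erhualian sow 3 and Large White sow 1 had nearly the same signal there. That gave a log2 difference of -0.90 (SE 0.34), -0.74 without Large White sow 2 and -0.65 without Erhualian sow 1.

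The third probe set of CAPZB, Ssc.27909.1.S1_at, was level, with 667, 678 and 565 in Erhualian and 661, 650 and 547 in Large White sows. The sows numbered 3 were the low ones in each breed, and the log2 difference was 0.04 (SE 0.19), or -0.05 to 0.12 when single sows were left out. The ratio of Ssc.10297.1.S1_at to it was 0.657, 0.659 and 1.30 in Erhualian and 1.27, 2.10 and 1.68 in Large White sows, and the breeds overlapped. Capping protein beta is known to have alternative transcripts that differ at the 3 prime end, and which of them each probe set reads was not tested.

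CFL1, cofilin, severs filaments and frees monomers for new growth. Its 1 probe set, SscAffx.22.1.S1_s_at, whose ending marks probes shared with other genes, had signals of 3262, 4337 and 3062 in Erhualian and 5252, 6256 and 4138 in Large White sows. Only Erhualian sow 2 reached the range of Large White sows, and there it exceeded Large White sow 3. The means for CFL1 were 3554 ± 686 (SD, n = 3) in Erhualian and 5216 ± 1059 in Large White sows, with a log2 difference of -0.55 (SE 0.22). It was -0.41 without Large White sow 2, -0.50 without Erhualian sow 1 and -0.71 without Large White sow 3.

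ARPC2 is a core subunit that binds the mother filament in the ARP2/3 complex. Its 1 probe set, Ssc.1149.2.A1_at, had signals of 960, 1225 and 1130 in Erhualian and 1204, 1596 and 1237 in Large White sows. The breeds overlapped, and Large White sow 2 was the highest. The log2 difference of ARPC2 was -0.28 (SE 0.20), -0.15 without Large White sow 2 and -0.18 without Erhualian sow 1.

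Taken by sow, Large White sow 2 had the highest signal in 11 of the 16 transcript probe sets. In all tested probe sets it was highest in 14.7%. Its median over the 16, each minus its own median over the arrays, was 0.35 on the log2 scale, against -0.10 to 0.04 in the other 5 sows. All 3 ACTN1 probe sets, 2 of CAPZB, CFL1 and ARPC2 were highest there. On the same scale the leukocyte list had its median at 1.28 in this sow and at -0.28 to 0.18 in the others. Their part in the members' signals was not tested. Without Large White sow 2, 8 of the 16 were lower in Erhualian sows, in place of 11.

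Erhualian sow 1, with the epithelial markers, was highest in 0 of the 16 probe sets and lowest in 5, among them CAPZB Ssc.10297.1.S1_at and Ssc.10297.3.S1_a_at. In all tested probe sets this sow was highest in 23.5% and lowest in 23.1%. Erhualian sow 3 was highest in 4, of which 3 belong to ACTG1 and 1 to ACTB, and lowest in 4, of which 2 belong to ACTN1.

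**Figure D4:**
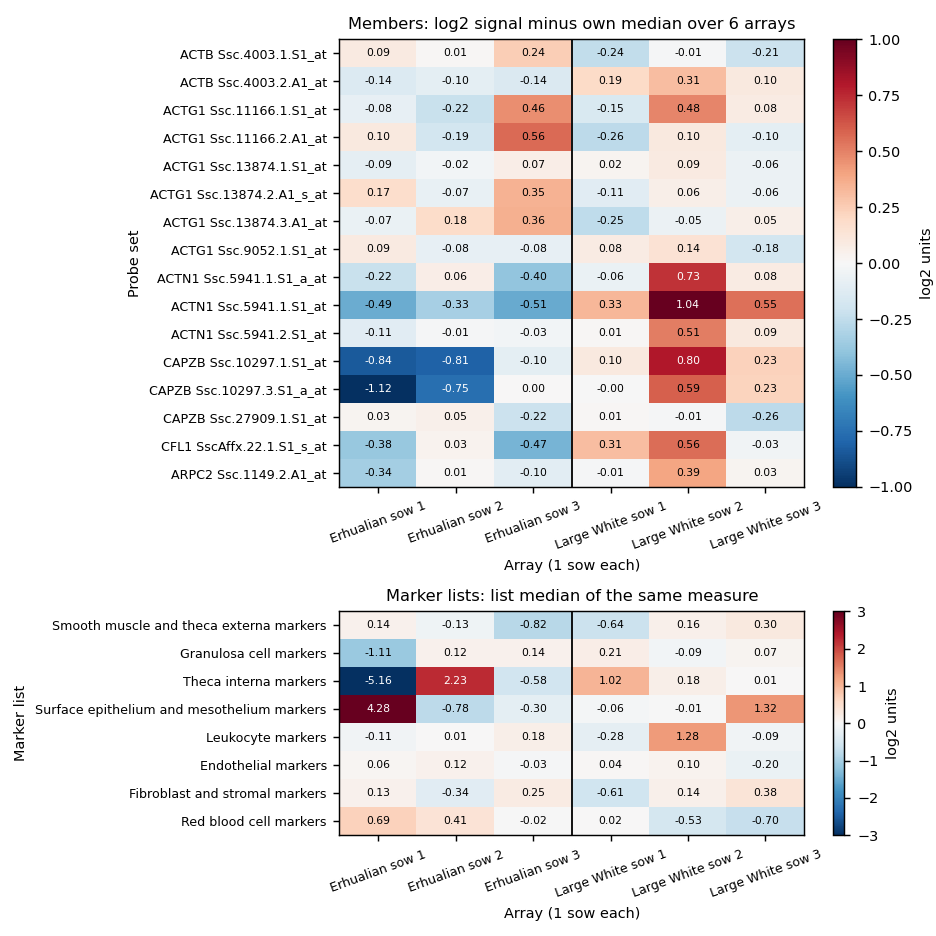
Upper panel, log2 signal of each transcript probe set minus its own median over the 6 arrays, 1 column per sow, Erhualian left of the line and Large White right. Lower panel, the median of the same measure over 8 lists of cell type markers, on a wider colour scale. Large White sow 2 is high for ACTN1, CAPZB and CFL1 and for leukocyte markers (1.28), and Erhualian sow 1 is low for theca interna (-5.16) and high for surface epithelium (4.28).

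Other genes of actin assembly were counted by role, each by its probe set of highest mean signal. Of 161 listed genes 84 were tested. None had an adjusted p below 0.05 in limma, nor had any of the 6322 genes. An unadjusted p of 0.05 or less was found in 3, or 3.57%, with the signal of Erhualian sows above in 1 and below in 2. Over all genes it was found in 3.67%, above in 1.04% and below in 2.63%. The methods' t-test gave 2. The 3 became 8 without Erhualian sow 2, 6 without Large White sow 1 and 1 without Large White sow 2. Without overlap between the breeds were 6 of the 84, with Erhualian sows above in 1 and below in 5, against 2.64% of all genes above, 6.15% below and 8.79% either way. The log2 difference was below 0 in 56 (66.7%), with a median of -0.20, and in 56.2% of all genes, with a median of -0.04. Without Large White sow 2 it was below 0 in 45 of the 84 (53.6%), with a median of -0.03, and in 53.6% of all genes, with a median of -0.03 as well.

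The ARP2/3 complex, which ARPC2 belongs to, had 9 tested partners, and 7 had a lower mean log2 signal in Erhualian sows (list median -0.32). ACTR3B, a variant of the ARP3 subunit, went the other way, with 240, 210 and 209 in Erhualian and 183, 121 and 144 in Large White sows, without overlap (log2 0.57, SE 0.20). ARPC3 had 2851, 3635 and 3344 in Erhualian and 4014, 4574 and 3554 in Large White sows. Only 1 Erhualian sow reached the range of Large White sows for ARPC3. BRK1, a subunit of the WAVE complex that switches ARP2/3 on, had 2088, 2184 and 2254 in Erhualian and 2377, 3538 and 3179 in Large White sows, without overlap (log2 -0.46, SE 0.19). WAS, the activator of blood cells, had 68.6 to 89.3 in Erhualian and 83.4 to 128 in Large White sows.

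Among genes that control severing, SSH1, a phosphatase that switches cofilin on, had the largest difference relative to its error. Its signals were 89.7, 74.0 and 99.9 in Erhualian and 130, 201 and 165 in Large White sows, without overlap (log2 -0.90, SE 0.22). These levels are low on the array, and SSH1 had 1 probe set. CORO1B, a coronin that removes ARP2/3 branches, had 1025, 961 and 863 in Erhualian and 1470, 1294 and 1069 in Large White sows, without overlap (log2 -0.42, SE 0.20). Of the 11 tested genes of this list, 8 were lower in Erhualian sows and the median was -0.35.

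Some regulators known from blood cells were high in Large White sow 2 alone, and they were chosen after their values were seen. GMFG, which takes branches apart, was at 3054 in this sow and at 329 to 620 in the other 5. CORO1A, a coronin of leukocytes, was at 1134 there and at 194 to 300 elsewhere. ARPC1B, an ARP2/3 subunit abundant in blood cells, was at 5922 there and at 1791 to 2720 elsewhere. TYROBP, a myeloid adaptor and no member of the actin lists, was at 5138 and 534 to 1011 in the same order. WIPF1 and CAPG, also named after their values were seen, were highest in Large White sow 2 but did not stand apart there. WIPF1 was at 1180 in that sow and at 1003 in Erhualian sow 3. CAPG was at 5506 in that sow and at 4844 in Erhualian sow 2. GMFG has 2 probe sets and CORO1A 3, and only the brightest of each is given.

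Bundling proteins included FLNA, filamin A, with 3007, 3461 and 3141 in Erhualian and 3600, 4146 and 3531 in Large White sows. The breeds did not overlap, but the log2 difference of FLNA was only -0.23 (SE 0.14). TAGLN2, transgelin 2, had 2489, 3753 and 1175 in Erhualian and 7148, 3054 and 2922 in Large White sows, with Large White sow 1 far above the rest. Of the 7 tested genes of the list 6 were lower in Erhualian sows (median -0.25).

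Monomer-binding TMSB10, a thymosin, had 10650 to 13609 in Erhualian and 12622 to 14262 in Large White sows (log2 -0.13, SE 0.12), and CAP1 had 2798 to 3445 and 3013 to 4755 in the same order. The other TMSB10 probe set gave 0.27 (SE 0.18), in the opposite direction. All 5 tested genes of that list were lower on average, with a median of -0.18 and 0 at an unadjusted p of at most 0.05. Capping genes had a median of 0.05, and ADD3 (log2 0.55, SE 0.44) and CAPG (log2 -0.69, SE 0.70) both overlapped. CAPG, which caps barbed ends like CAPZB, ranged from 1045 to 4844 in Erhualian and from 1517 to 5506 in Large White sows.

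Among formins, which grow unbranched filaments, log2 differences were -0.59 (SE 0.33) for FHOD3 and -0.34 (SE 0.24) for INF2, with overlap. Their list also holds ENA/VASP proteins, of which EVL was tested. Of its 4 tested genes 3 were lower and 1 higher in Erhualian sows (median -0.28). The higher one, the formin FHOD1, named after its value was seen, had a log2 difference of 0.17 (SE 0.21), with overlap.

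Among linkers to membrane and adhesions, PDLIM7 had a log2 difference of -0.75 (SE 0.32) and TLN1, talin, of -0.30 (SE 0.25), both with overlap. The other TLN1 probe set had 187, 280 and 182 in Erhualian and 134, 127 and 160 in Large White sows, in the opposite direction and without overlap (log2 0.60, SE 0.22). MYL6, a light chain of myosin, had 8990 to 11446 in Erhualian and 11386 to 12910 in Large White sows (log2 -0.25, SE 0.12), and MYO6, the myosin that walks to the pointed end, had a log2 difference of 0.39 (SE 0.22). MYL6 and MYO6 belong to the list of non-muscle myosin and tropomyosin, where 5 of the 10 tested genes were higher and 5 lower in Erhualian sows. Of the 12 tested linkers 5 were higher and 7 lower (median -0.09).

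**Figure D5:**
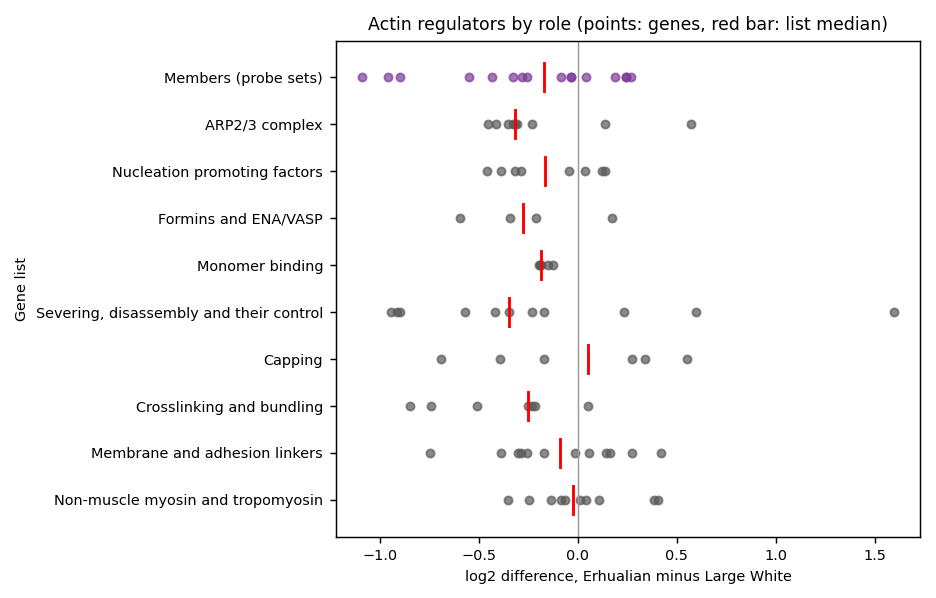
Log2 difference, Erhualian minus Large White, of the members' 16 probe sets and of the other tested genes by role list. Each point is 1 probe set (upper line) or 1 gene, and the red bar is the median of the line. Medians run from -0.35 for severing and disassembly to 0.05 for capping.

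The actins of smooth muscle, which mark the theca externa, were set beside the cytoplasmic actins. ACTA2 had 8013, 9940 and 9020 in Erhualian and 8386, 10610 and 10593 in Large White sows, with overlap (log2 -0.13, SE 0.14). ACTG2 had 4355, 3309 and 675 in Erhualian and 1588, 3344 and 2974 in Large White sows, with Erhualian sow 3 the lowest (log2 -0.23, SE 0.73). On the other ACTG2 probe set Erhualian sow 3 was the highest, at 2374 (log2 -0.05, SE 0.35). ACTA1 and ACTC1 were not tested.

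The genes with the most similar pattern over the 6 arrays were listed for the ACTB and the ACTN1 probe set of highest mean signal, by the root mean square difference of log2 signals, each centred on its own mean. For ACTB Ssc.4003.2.A1_at the nearest were PAFAH1B1, FUNDC2, UBE2O, PHF23 and CHKB, at 0.0400 to 0.0570 log2 units, against a median of 0.320 over 9092 probe sets. PAFAH1B1, a regulator of dynein, had 1153, 1170 and 1119 in Erhualian and 1415, 1468 and 1387 in Large White sows. For ACTN1 Ssc.5941.1.S1_at they were AMZ2, B2M, MARVELD1, HPS5 and CRELD1, at 0.0989 to 0.181, against a median of 0.640. AMZ2, a metallopeptidase, had 573, 702 and 576 in Erhualian and 935, 1516 and 1080 in Large White sows. Each gene was listed by its nearest probe set alone. B2M has 9 probe sets, and PAFAH1B1, UBE2O, PHF23 and HPS5 have 2 each, and their other probe sets are not given. Both lists are descriptions over 6 arrays.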

How the data were processed

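RNA of the follicles of 3 Chinese Erhualian and 3 Large White sows was measured on 6 Affymetrix porcine arrays. The authors made the deposited signal intensities with MAS5 (version 2.3.1 in the submitters' processing notes), scaled them to a common target on each array and normalized across arrays with the invariant set of dChip. The values are linear. No count or depth exists, and the number of arrays limits the precision.

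Samples were grouped by the breed in the labels. Control probe sets (188) were set aside, the remaining signals were floored at 1 before log2, and the 19196 probe sets that exceeded 50 on 3 or more arrays were fitted on breed with limma 3.58.1 (R 4.3.3, variance trend, 2-sided), with Benjamini-Hochberg adjustment. The 4 actin controls were described by their signals only. Symbols came from the probe table, in which 10099 probe sets have 1 symbol, 198 several and 13826 none. The gene IDs of all 20 member probe sets had the same symbol in RefSeq. The procedure was tested on simulated data. Python 3.11.15, pandas 2.3.3, numpy 2.4.6 and matplotlib 3.10.9 were used.

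The members and lists were chosen with earlier results of these data known. Named were all probe sets of the members, the 2 genes of each role list with the smallest limma p, the muscle actins and the 5 genes of nearest pattern. The genes of 1 role list count in the totals but are not reported here singly. Other names are marked as chosen after their values were seen. Alternatives were other normalizations, filters, an offset of 16, a constant prior variance, array weights, a replicate block, the methods' t-test, the median over the probe sets of a gene, and each array left out. No genome coordinates or sequences of probes were used here.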

Additional observations from a re-analysis of the deposited data

How the results depend on the processing

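No member probe set reached an adjusted p below 0.05 under any alternative run (limma, or the methods' t-test), and the lowest adjusted p was 0.418. Their median log2 difference of -0.17 was -0.24 with array weights, -0.08 with a signal above 100 in the filter, and -0.28 to -0.05 when single arrays were left out. ACTN1 Ssc.5941.1.S1_a_at ranged from -0.70 to -0.20 over all alternatives. The number of members at an unadjusted p of at most 0.05 was 5 and became 6 with array weights, 6 with quantile normalization, 3 with a constant prior variance, 3 with the methods' t-test, and 1 to 4 when single arrays were left out. The count over the 84 genes of the role lists was 3 and became 7 with array weights and 1 to 8 when single arrays were left out. Keeping the actin controls in the fit, an alternative chosen after seeing the data, left the members' count at 5. The replicate numbers of the labels were not taken to pair the sows. Deviations from the breed means correlated at -0.17, -0.14 and 0.27 for sows of the same number, and at 0.51 for Erhualian sow 2 with Large White sow 1. With 3 arrays in each breed such deviations are tied to each other, so these correlations cannot settle whether sows of the same number are paired. With the replicate number as a block the counts were 5 members and 4 genes of the role lists, and 0 adjusted member calls. A signal above 100 in the filter removed ACTN1 Ssc.5941.2.S1_at, whose signals lie near 60.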

Other observations

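Some actin probe sets lay outside the rule. The control probe sets AFFX-Ss_Actin_3_s_at, AFFX-Ss_Actin_M_s_at and AFFX-Ss_Actin_5_s_at carry no symbol in the probe table and had log2 differences of 0.09, 0.03 and 0.19 between Erhualian and Large White sows. Ssc.17611.1.S1_at carries the symbols AK1 and ACTG1 together. Its signals were 1188, 448 and 422 in Erhualian and 333, 367 and 540 in Large White sows, so that Erhualian sow 1 stood apart from the other 5.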
